A study of Mus musculus with 2 samples.

Results

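The collagen chain genes are described here in single cells of the mouse embryonic head with and without both TFAP2A and TFAP2B in the neural crest. Members were all genes of the count tables whose symbol is Col, a number, a and a number, which gave 44 of 32285 genes. By protein class, 11 of them encode fibrillar chains, 8 encode basement-membrane chains and 25 encode other chains. The study holds 1 control and 1 mutant library, each made from the pooled GFP-positive cells of 2 embryos at E11.5.

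Control embryos carried Tfap2a wt/flox and Tfap2b wt/flox, and mutant embryos carried Tfap2a flox/flox and Tfap2b flox/flox. Both were r26 mTmG/mTmG and Wnt1CRE+, so that the controls had also lost 1 copy of each factor wherever the CRE had acted. Wnt1-CRE recombines in neural crest and in part of the dorsal brain, and sorting on the GFP it switches on therefore yields mesenchyme, glia, neurons and brain progenitors together. With 1 library per genotype there is no replicate check: every interval below is a 95% interval for counting error only, and no test between genotypes was possible.

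The control library kept 5625 cells and the mutant 5587, with a median of 13478 and 12234 UMIs (unique molecules) per cell. Tfap2a and Tfap2b were still counted in mutant mesenchyme, at 13.7 and 47.3 CPM (UMIs per 1000000 UMIs of the same cells). In control mesenchyme they were at 19.4 and 56.3, with a small doublet-rich cluster left out in both libraries. Glia-like cells had Tfap2a at 78.0 in the control and 119 in the mutant, and Tfap2b at 233 and 194. Tags at the 3′ end of a transcript may not read the deleted part, so these values do not check the genotypes. The female-specific transcript Xist was counted in 98.8% of cells in the control library and 0.107% in the mutant library, and Y-linked transcripts in 0.0356% and 82.0%. Sex and genotype therefore cannot be told apart, and among the members Col4a5 and Col4a6 lie on the X chromosome. Between the libraries, 5 cells shared a barcode sequence. Marker genes gave 3808 control and 2874 mutant mesenchyme-like cells, 260 and 201 glia-like, 799 and 1286 neuron-like, and 758 and 1226 brain progenitor-like cells. The mesenchyme markers summed to 1840 and 1838 CPM in mesenchyme-like cells, again without the doublet-rich cluster.

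Collagens are extracellular proteins in which several chains wind into a helix. Fibrillar collagens pack into the fibres of loose connective tissue and cartilage, basement-membrane collagens form the sheet under epithelia and around vessels and nerves, and the remaining types coat fibrils, form beaded filaments or span the cell membrane. In the head, much of this matrix is laid down by neural crest mesenchyme, which later makes cartilage, bone and the supporting cells of vessels.

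Of the 44 members, 29 reached 100 UMIs in 1 or both libraries over all kept cells, 14 had fewer and Col10a1, the chain of hypertrophic cartilage, had 0. Levels are given as CPM within the same cells, without correction for transcript length because only the 3′ end is counted. Ratios of mutant to control are given on the log2 scale, and a member was called higher or lower where the ratio reached 1.5-fold and 1 or both libraries had 100 UMIs.

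Several chain genes lie next to each other. Col4a1 and Col4a2, the chains of the most widespread basement-membrane network, start 21 bases apart on opposite strands of chromosome 8, Col4a3 and Col4a4 start 72 bases apart, and Col4a5 and Col4a6 start 1309 bases apart. The promoter shared by Col4a1 and Col4a2 and those of Col6a1 and Col6a2, the chains that moved most in mesenchyme, are shown because they bear on the question whether the members carry a TFAP2-type motif. Each window runs from 250 bases before to 50 bases after the RefSeq start site in GRCm38.p6, written 5′ to 3′ on the gene's strand: chr8:11312555-11312854 on the plus strand for Col4a2, chr10:76725995-76726294 on the minus strand for Col6a1 and chr10:76623581-76623880 on the minus strand for Col6a2. Capitals mark a match to GCCNNNGGC, which reads the same on both strands.
Col4a2: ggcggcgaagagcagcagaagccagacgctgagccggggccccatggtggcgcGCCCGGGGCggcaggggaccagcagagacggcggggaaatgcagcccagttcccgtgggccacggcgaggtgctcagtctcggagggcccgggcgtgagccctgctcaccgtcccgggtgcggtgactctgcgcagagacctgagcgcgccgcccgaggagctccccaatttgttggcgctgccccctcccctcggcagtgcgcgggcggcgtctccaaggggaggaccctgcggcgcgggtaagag
Col6a1: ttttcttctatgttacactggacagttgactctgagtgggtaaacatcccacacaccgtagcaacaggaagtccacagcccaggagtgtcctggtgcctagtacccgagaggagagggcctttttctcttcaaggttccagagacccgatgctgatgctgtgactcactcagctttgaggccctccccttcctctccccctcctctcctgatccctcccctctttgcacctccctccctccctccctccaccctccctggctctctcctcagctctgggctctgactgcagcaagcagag
Col6a2: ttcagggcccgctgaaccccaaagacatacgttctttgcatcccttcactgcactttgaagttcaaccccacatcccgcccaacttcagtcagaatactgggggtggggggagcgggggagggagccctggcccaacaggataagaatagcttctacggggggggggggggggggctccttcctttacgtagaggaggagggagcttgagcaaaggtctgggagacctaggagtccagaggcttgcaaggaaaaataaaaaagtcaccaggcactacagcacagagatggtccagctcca
The match in the Col4a2 window began 197 bases before its start site, and the windows printed for Col6a1 and Col6a2 held none. It lay outside the Col4a1 window, chr8:11312777-11313076 on the minus strand, which held a separate match that is not printed. A second Col6a2 window, whose start site lies 226 bases away, held a match, and the RefSeq start of Col6a1 lies 124 bases from the GENCODE one. RefSeq promoters were found for 35 members, of which 9 held the motif (25.7%), against 18.5% of 27025 genes. These 9 were Col16a1, Col4a1, Col4a2, Col5a1, Col5a3, Col6a2, Col6a5, Col6a6 and Col9a1.

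The mesenchyme held most of the collagen transcripts, and a few chains made up most of that pool. All members together gave 103360 UMIs in control and 89607 in mutant mesenchyme, or 1757 and 2018 CPM. The 8 most abundant members held 78.7% of these UMIs in control and 78.8% in mutant cells. Fibrillar chains took 63.8% and 63.6%, basement-membrane chains 13.1% and 13.5%, and other chains 23.1% and 22.9%, so the classes kept nearly the same shares. After each cell was thinned to 5000 UMIs, 75.9% of mesenchyme cells had a Col3a1 UMI in the control and 79.7% in the mutant. Among neuron-like cells, which should lack Col3a1, 2.01% and 1.91% had one.

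**Figure D1:**
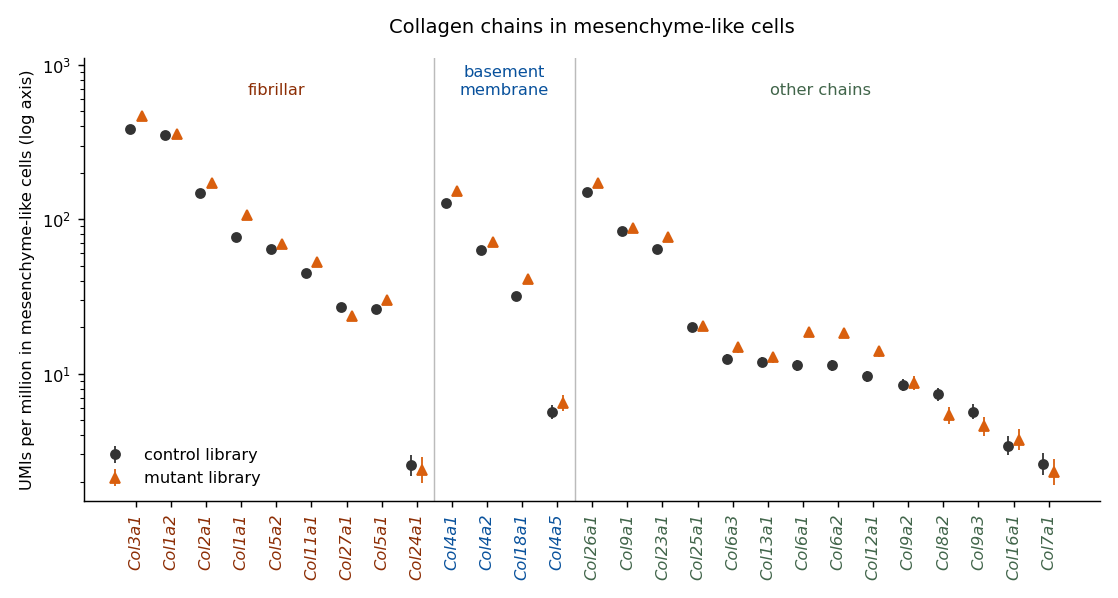
Level of the 27 members with 100 or more UMIs in mesenchyme (vertical log axis, CPM). Black circles are the control library, orange triangles the mutant library and bars 95% counting intervals. Levels run from 2.32 for Col7a1 in mutant cells to 466 for Col3a1 in mutant cells, and most triangles sit slightly higher than their circles.

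Collagen transcripts were modestly more abundant in mutant than in control mesenchyme. The summed ratio was 0.20 on the log2 scale (0.19 to 0.21), with 0.19 (0.18 to 0.21) for fibrillar, 0.25 (0.21 to 0.28) for basement-membrane and 0.19 (0.16 to 0.22) for other chains. Of 27 members with enough UMIs, 22 had a ratio above 0, and their median was 0.19 against 0.02 for 11693 genes. Only Col6a1 and Col6a2 passed 1.5-fold, both higher (7.41% of members against 2.5% of all genes), and none was lower (0.924% of all genes). Which members passed changed when the shares of finer cell clusters were held equal, as given below. With cells thinned to equal depth the number higher was 4, with Col1a1 and Col12a1 added. Marker sums were taken in mesenchyme-like cells, not thinned, without a small doublet-rich cluster that the collagen values include. Mural (vessel-supporting cell) markers summed to 127 and 176 CPM (7 of 8 higher) and neuron markers to 159.8 and 213 (8 of 8 higher). Periocular and meningeal markers summed to 157 and 230.2 (6 of 7 higher) and frontonasal markers to 415 and 294 (0 of 6 higher). In the left-out cluster neuron markers summed to 1181 and 1372 CPM. The part of such cells in the collagen values was not tested.

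Among the fibrillar chains, Col3a1 and Col1a2 were the most abundant. Col3a1, whose homotrimers form the thin fibres of soft tissue, was at 383 CPM in control and 466 in mutant mesenchyme (0.28, 0.26 to 0.31). Col1a2 was at 349 and 359 (0.04, 0.01 to 0.07), while its partner chain Col1a1 was at 76.3 and 107 (0.49, 0.43 to 0.55). The 2 chains of type I collagen therefore differed unequally between genotypes, with 0.219 (0.212 to 0.226) Col1a1 UMIs per Col1a2 UMI in the control and 0.299 (0.289 to 0.308) in the mutant. Their correlation across single cells, thinned and given as a description, was 0.18 in 3663 control and 0.30 in 2682 mutant cells.

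Cartilage fibril genes were also well represented. Col2a1, the main cartilage chain, was at 147 and 172 CPM (0.22, 0.18 to 0.27), and Col11a1, which joins the same fibrils, was at 44.8 and 52.9 (0.24, 0.16 to 0.32). Their quotient, Col11a1 over Col2a1, was 0.303 and 0.308, with overlapping intervals. Across single mesenchyme cells Col2a1 correlated with Sox9, its known activator, at 0.31 in control and 0.30 in mutant cells. The type V chains, which start and limit type I fibrils, differed little: Col5a2 was at 64.6 and 69.3 (0.10, 0.03 to 0.17) and Col5a1 at 26.2 and 30.1 (0.20, 0.09 to 0.31). Col27a1, a fibrillar chain of cartilage, had a lower value in the mutant, at 27.1 and 23.5 (-0.21, -0.32 to -0.09), short of 1.5-fold. The interval of Col24a1 crossed 0, at 2.55 and 2.39.

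Each basement-membrane chain with enough UMIs had a ratio above 0 in mesenchyme. Col4a1 was at 128 and 152 CPM (0.25, 0.20 to 0.30) and Col4a2 at 62.8 and 70.8 (0.17, 0.10 to 0.24), with 2.04 and 2.15 Col4a1 UMIs per Col4a2 UMI. These divergent neighbours were also among the best correlated pairs across cells, at 0.29 in control and 0.31 in mutant. Col18a1, the chain whose end fragment is endostatin, was at 31.9 and 41.3 (0.37, 0.28 to 0.46). Col4a5, an X-linked chain, was at 5.64 and 6.46, and its interval of -0.04 to 0.43 reached 0.

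Of the other chains, Col6a1 and Col6a2 showed the largest ratios. Type VI collagen forms beaded filaments around cells from chains that include those of Col6a1, Col6a2 and Col6a3. Col6a1 was at 11.3 and 18.7 CPM (0.72, 0.57 to 0.87) and Col6a2 at 11.3 and 18.4 (0.70, 0.55 to 0.85). Col6a3 was at 12.5 and 14.8 (0.24, 0.09 to 0.40). Col6a1 and Col6a2 stayed even with each other, at 1.00 and 1.01, whereas Col6a3 per Col6a2 was 1.11 (0.994 to 1.23) in the control and 0.803 (0.724 to 0.891) in the mutant. Col6a1 was found in 5.50% (4.79 to 6.28) of thinned control cells and 9.05% (8.01 to 10.2) of thinned mutant cells, and in 0.535% and 0.0830% of neuron-like cells.

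The fibril-associated chains split. Col12a1, which binds the surface of type I fibrils, was at 9.60 and 13.96 CPM (0.54, 0.37 to 0.71). In type IX, which decorates cartilage fibrils, Col9a1 was at 84.4 and 87.2 (0.05, -0.01 to 0.11) and Col9a2 at 8.40 and 8.74 (0.06, -0.14 to 0.25), while Col9a3 was at 5.68 and 4.55 (-0.32, -0.58 to -0.06). Col16a1, another fibril-associated chain, was at 3.42 and 3.74, with an interval that crossed 0.

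The remaining chains included some of the most abundant in this tissue. Col26a1 ranked just after Col3a1 and Col1a2 in the control, at 149.8 and 171 CPM (0.19, 0.14 to 0.23). Col23a1, a transmembrane chain, was at 64.0 and 76.5 (0.26, 0.19 to 0.32). The transmembrane chains Col25a1 and Col13a1 differed by less than counting error, at 19.9 and 20.2 and at 11.8 and 12.7. Col8a2, a network-forming chain, had the lowest ratio, at 7.38 and 5.36 (-0.46, -0.70 to -0.23). Col7a1, the chain of anchoring fibrils, was at 2.62 and 2.32, with an interval that crossed 0.

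Transcripts of the rarer chains came from fewer cells. In control mesenchyme the 10 richest cells held 1.29% of Col1a2 UMIs and 2.13% of Col3a1 UMIs, but 14% of Col24a1 and 11.7% of Col9a3 UMIs. For Col1a2, 22.7% of the cells held as many UMIs as all the others, and for Col9a3 2.68% did so. Single-cell shares and correlations for the rare chains therefore rest on few cells. Low counts alone raise the share held by the richest cells, so these values do not measure how narrowly a chain was expressed.

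The mesenchyme divided into 4 main clusters, and the difference between genotypes was largest in the first. This cluster was led by Pax7, Zic1 and Tagln, and was left unnamed because frontonasal and periocular and meningeal markers scored nearly alike in it. It held 1292 control and 867 mutant cells. Its collagen total was 2088 and 2896 CPM (0.47, 0.45 to 0.49). The maxillary-like cluster, with 965 and 767 cells, was at 1495 and 1595 (0.09, 0.07 to 0.12), and the unnamed cluster led by Hoxa2, Emx2 and Dlx3, with 694 and 700 cells, at 1814 and 2000.4 (0.14, 0.11 to 0.17). In the mandibular-like cluster, with 757 and 398 cells, the total was 1621 and 1574 (-0.04, -0.08 to -0.01). A smaller cluster of 100 and 142 cells, in which 45.0% and 56.3% of the cells were called doublets, is not described further.

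**Figure D2:**
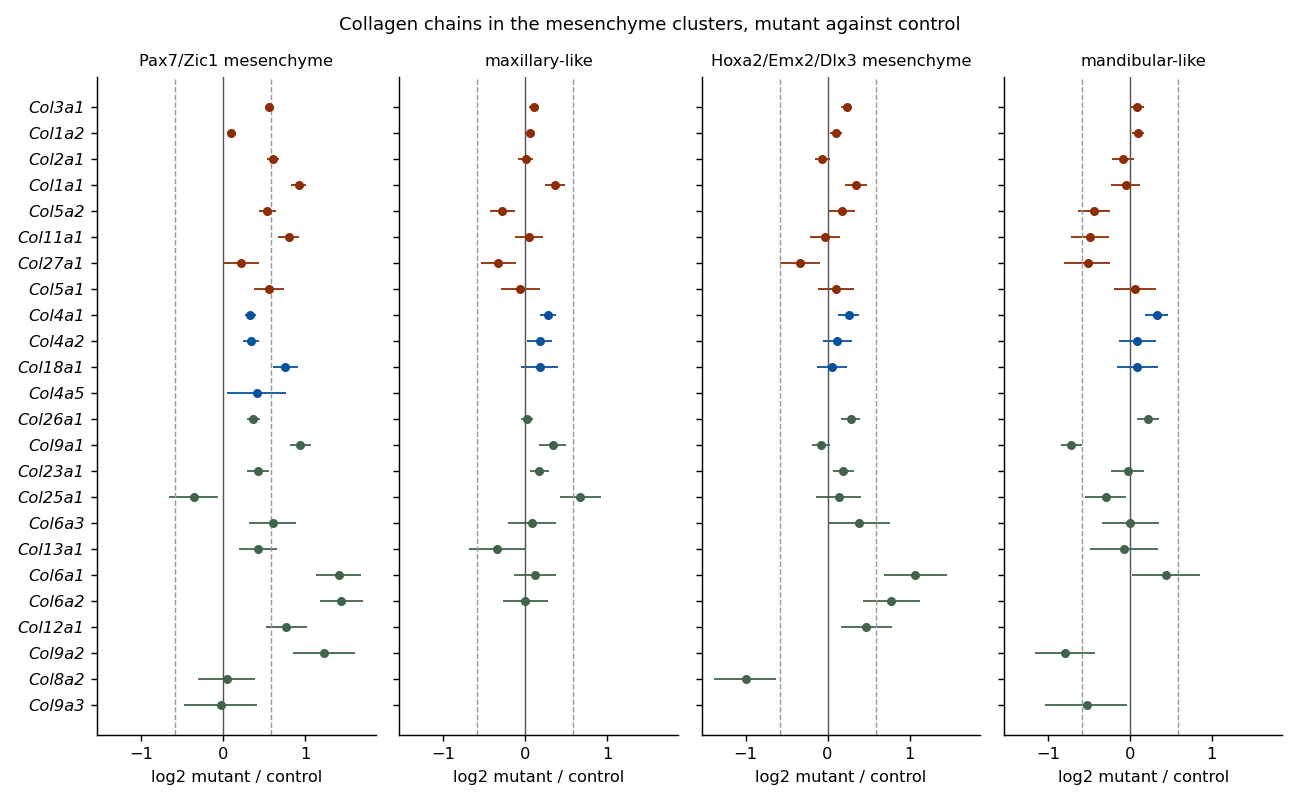
Log2 ratio of mutant to control level (horizontal axis) for members with 100 or more UMIs, 1 panel for each of the 4 main mesenchyme clusters; bars are 95% counting intervals and dashed lines mark 1.5-fold. Members sit mostly right of 0 in the Pax7 and Zic1 cluster, where 10 pass the upper line, and on both sides of 0 in the mandibular-like cluster, where Col9a1 and Col9a2 pass the lower line.

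In the Pax7 and Zic1 cluster, 10 of 24 members were higher in the mutant and none was lower, against 3.72% and 1.08% of all genes, and the members' median was 0.55 against 0.01. Col6a2 and Col6a1 again led, with Col6a2 at 9.91 and 26.9 CPM (1.44, 1.18 to 1.71) and Col6a1 at 9.19 and 24.5 (1.41, 1.14 to 1.69). Of the type IX chains, Col9a2 was at 5.19 and 12.2 (1.23, 0.86 to 1.61) and Col9a1 at 44.8 and 86.1 (0.94, 0.81 to 1.07), but Col9a3 was at 5.96 and 5.85 (-0.03, -0.47 to 0.41). Fibrillar and other chains past the line were Col1a1 (88.0 and 167), Col11a1 (48.6 and 84.6), Col12a1 (13.9 and 23.8), Col2a1 (167 and 255) and Col6a3 (10.99 and 16.7). Col18a1 was the one basement-membrane chain past it, at 34.2 and 58.0. The most abundant chains of the cluster had smaller ratios, with Col3a1 at 521 and 771 (0.56, 0.52 to 0.60), Col1a2 at 425 and 454 (0.10, 0.05 to 0.15), Col4a1 at 196 and 247 (0.34, 0.27 to 0.40) and Col26a1 at 162 and 209 (0.37, 0.30 to 0.45).

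Cell makeup moved with these values. In a finer clustering, the mural-like share of this cluster was 27.0% in the control and 42.9% in the mutant, and the frontonasal-like share 59.5% and 45.7%. The 8 mural markers summed to 170.0 and 331 CPM, all 8 higher in the mutant. The 7 periocular and meningeal markers summed to 286 and 497, with 6 higher, and the 6 frontonasal markers to 846 and 582, with 0 higher. With the finer shares held equal, a comparison chosen after seeing the data, 7 of 24 members stayed past 1.5-fold, against 2.38% of all genes, and the median was 0.34 against 0.02. Those 7 were Col6a1 at 1.21, Col9a2 at 1.12, Col6a2 at 1.11, Col9a1 at 0.71, Col11a1 at 0.63, Col12a1 at 0.62 and Col18a1 at 0.61, while Col1a1 and Col2a1 were at 0.53 and Col6a3 at 0.48. Over the whole mesenchyme the ratio of the collagen total was 0.24 with the main clusters' shares held equal and 0.15 with the finer ones.

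Both finer clusters differed between genotypes. The mural-like cluster, 349 cells in the control and 373 in the mutant, also carried periocular and meningeal markers, and had Zic1 and Zic4 among its leading genes. It had a collagen total of 3759 and 4566 CPM (0.28, 0.25 to 0.31), and 5 of 19 members were higher, against 2.7% of all genes. These were Col12a1 at 16.4 and 36.1 (1.14, 0.70 to 1.59), Col6a2 at 24.6 and 53.6 (1.12, 0.76 to 1.49), Col6a1 at 19.3 and 40.1 (1.05, 0.65 to 1.47), Col9a1 at 91.3 and 147 (0.69, 0.50 to 0.89) and Col1a1 at 229 and 360 (0.65, 0.53 to 0.78). Their basement-membrane chains were already high in the control and close in the mutant, with Col4a1 at 463 and 478 (0.05, -0.05 to 0.14) and Col4a2 at 240.2 and 236 (-0.03, -0.16 to 0.11).

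Frontonasal-like cells, 771 and 400, had a total of 1675 and 2128 CPM (0.35, 0.32 to 0.38), and 8 of 19 members were higher, against 2.43% of all genes. They included Col6a1 at 6.12 and 16.1 (1.40, 0.97 to 1.83), Col18a1 at 26.1 and 47.9 (0.88, 0.66 to 1.10) and Col2a1 at 146 and 241 (0.72, 0.63 to 0.82). The type IX chain Col9a1, the transmembrane chain Col13a1, Col11a1 and Col6a3 also passed, with ratios of 0.88, 0.81, 0.80 and 0.68. Col3a1 was at 383 and 575 (0.59, 0.53 to 0.65), whereas Col1a2 had a lower value, at 389 and 338 (-0.20, -0.27 to -0.13). Marker sums differed between genotypes within both finer clusters. In the mural-like cells mural markers summed to 369 and 723 CPM, frontonasal markers to 614 and 376 and periocular and meningeal markers to 664 and 726. In the frontonasal-like cells mural markers summed to 111 and 127, frontonasal markers to 894 and 636 and periocular and meningeal markers to 214 and 436. In each of these clusters 0 of 6 frontonasal markers were higher in the mutant. Their part in the collagen values was not tested.

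Elsewhere in the mesenchyme few members passed the line. In the maxillary-like cluster 1 of 19 was higher, against 0.663% of all genes: Col25a1, at 13.6 and 21.7 CPM (0.67, 0.42 to 0.92). The most abundant chains there were close, with Col1a2 at 320.2 and 332, Col3a1 at 290.2 and 312, Col26a1 at 188 and 190.3, Col2a1 at 124 and 125 and Col4a1 at 104 and 126. In the Hoxa2, Emx2 and Dlx3 cluster 2 of 20 were higher and 1 lower, against 1.82% and 0.884% of all genes. These were Col6a1 at 8.79 and 18.4 (1.07, 0.68 to 1.46), Col6a2 at 11.8 and 20.2 (0.78, 0.43 to 1.12) and, lower, Col8a2 at 19.1 and 9.57 (-0.9996, -1.38 to -0.63). Its most abundant chains were Col3a1 at 379 and 446, Col1a2 at 298 and 319, Col2a1 at 190.5 and 182, Col9a1 at 156 and 148 and Col26a1 at 115 and 139.7. In the mandibular-like cluster 2 of 20 were lower and none higher, against 1.08% and 0.608% of all genes.

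The 2 lower members of the mandibular-like cluster were type IX chains. Col9a1 was at 175 and 107 CPM (-0.71, -0.84 to -0.59) and Col9a2 at 22.9 and 13.3 (-0.79, -1.16 to -0.43). The type IX partner Col9a3 was at 10.9 and 7.56 (-0.53, -1.04 to -0.04), short of the line. The cartilage chains Col11a1 and Col27a1 also had lower values there, at 48.0 and 34.4 (-0.48) and at 32.9 and 23.0 (-0.52), while Col2a1 was at 118 and 111 (-0.09, -0.22 to 0.05). The abundant soft-tissue chains Col1a2, at 321 and 343, and Col3a1, at 304 and 325, and Col26a1, at 109 and 128, had ratios slightly above 0. Col9a1 and Col9a2 thus had opposite signs in the mandibular-like and the Pax7 and Zic1 clusters; the difference between clusters was not tested.

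Some members marked regions more sharply than others. In control cells Col8a2 was 9.95-fold higher in the Hoxa2, Emx2 and Dlx3 cluster than in the mandibular-like one, Col13a1 was 8.49-fold higher in the Pax7 and Zic1 cluster than in the Hoxa2, Emx2 and Dlx3 one, and Col9a3 was 8.10-fold higher in the mandibular-like cluster than in the Hoxa2, Emx2 and Dlx3 one. Their lowest counts were 21, 20 and 13 UMIs. Col9a1 ranged 4.84-fold, from 36.2 in the maxillary-like to 175 in the mandibular-like cluster, and in the mutant its highest cluster was instead the Hoxa2, Emx2 and Dlx3 one, at 148. Col1a1 ranged only 1.34-fold among the 4 main clusters in the control, and 2.55-fold in the mutant. Among the larger of the finer clusters it ranged 4.28-fold in the control, from 53.6 in the frontonasal-like to 229 in the mural-like cluster. Col8a2 was also highest in the mural-like cluster there, at 26.7. All collagen chains had been left out of the clustering, so their levels did not form these groups.

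**Figure D3:**
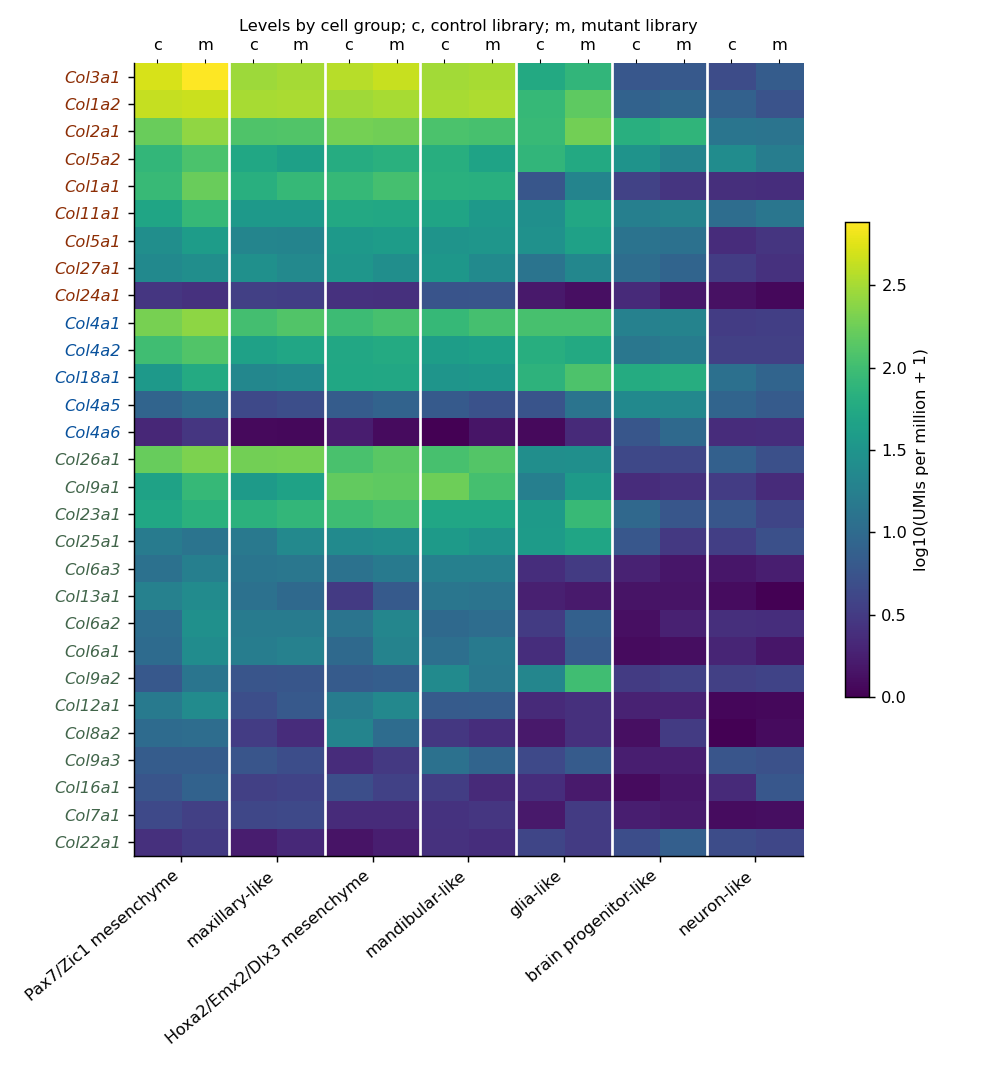
Heat map of log10(CPM + 1) for 29 members (rows) in 7 cell groups (columns), each split into control (c) and mutant (m). Col3a1, Col1a2 and Col4a1 are high across mesenchyme groups, and Col18a1, Col2a1 and Col5a2 remain visible in progenitors, where Col1a1 and Col26a1 are low.

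In glia-like cells, which carry markers of the glia of peripheral nerves and ganglia, the collagen total was 788 CPM in control and 1249 in mutant cells (0.66, 0.60 to 0.73). Of 14 members with enough UMIs, 8 were higher and none lower (57.1% of members against 4.49% of all genes higher and 5.23% lower), and the median was 0.69 against 0.02. Neuron markers differed far more in the same cells: the 8 markers summed to 2776 CPM in the control and 443 in the mutant, all 8 lower in the mutant. The 8 glial markers summed to 2081 and 2592, with 7 higher. Collagen values are therefore also given for glia-like cells with few neuron-marker UMIs.

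Col9a2 had the largest ratio in the glia. It was at 20.003 and 98.4 CPM (2.30, 1.97 to 2.64), from 101 and 322 UMIs, and its partner chain Col9a1 was at 16.6 and 36.7 (1.14, 0.73 to 1.56). Col9a3 had 17 and 19 UMIs, too few to read. Among cells thinned to 5000 UMIs, Col9a2 was found in 12.0% (8.31 to 16.6) of control and 36.0% (29.4 to 43.1) of mutant glia-like cells, and in 0.937% and 1.41% of neuron-like cells. The Col9a1 to Col9a2 quotient, 10.0 and 9.98 in mesenchyme, was 0.832 (0.615 to 1.12) and 0.373 (0.300 to 0.461) in glia.

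Other chains past the line in glia-like cells were Col23a1 at 36.4 and 86.2 CPM (1.24, 0.97 to 1.52), Col2a1 at 86.9 and 184 (1.08, 0.90 to 1.27) and Col11a1 at 26.1 and 53.2 (1.02, 0.69 to 1.36). Col1a2 was at 85.8 and 146 (0.77, 0.58 to 0.96), Col18a1 at 72.1 and 119 (0.72, 0.51 to 0.93) and Col5a1 at 28.1 and 44.3 (0.66, 0.31 to 1.00). The most abundant basement-membrane chain, Col4a1, was at 111 in both (0.00, -0.19 to 0.20), and Col4a2 was at 62.8 and 55.9 (-0.17, -0.44 to 0.10). Col5a2 had the lowest ratio, at 78.8 and 55.3 (-0.51, -0.77 to -0.25), and so was opposite in sign to its partner Col5a1.

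**Figure D4:**
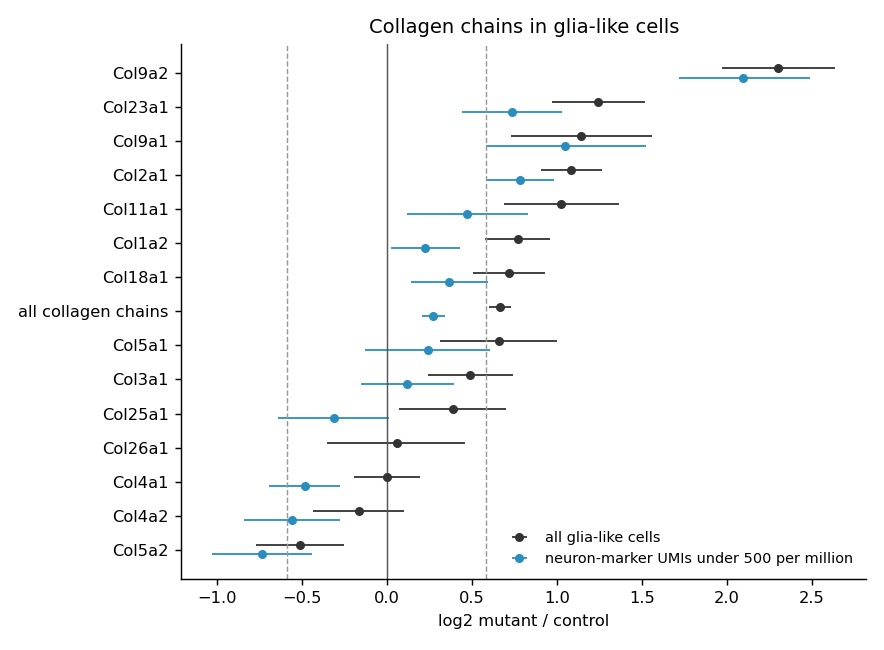
Log2 ratio of mutant to control level (horizontal axis) with 95% counting intervals for members in glia-like cells, black for all cells and blue for those with fewer than 500 neuron-marker CPM. Col9a2 is at 2.30 and 2.09 in the 2 sets, whereas Col4a1 is at 0.00 in all cells and -0.48 in the blue set.

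Part of this difference went when neuron-marker-rich cells were left out, a comparison chosen after seeing the data. With under 500 neuron-marker CPM, 155 control and 178 mutant glia-like cells remained, their neuron markers summed to 216 and 155 CPM, and the collagen total had a ratio of 0.27 (0.20 to 0.34). Of 13 members 4 were then higher and 1 lower, against 2.73% and 2.28% of all genes, and the median was 0.24 against -0.02. The higher ones were Col9a2 at 2.09 (1.72 to 2.49), Col9a1 at 1.04 (0.58 to 1.52), Col2a1 at 0.78 (0.59 to 0.98) and Col23a1 at 0.73 (0.44 to 1.03). The lower one was Col5a2, at -0.73 (-1.03 to -0.44), and Col4a1 and Col4a2 had values of -0.48 and -0.56, short of 1.5-fold. Col11a1, Col1a2, Col18a1 and Col5a1 had values of 0.47, 0.23, 0.37 and 0.24 and no longer passed.

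Mesenchyme transcripts were also present in the glia-like cells. Genes of mesenchyme used as a gauge of such RNA stood at 7.53% of their mesenchyme level in control and 8.05% in mutant glia-like cells. Single gauge genes ranged from 0 to 10.3% in control and from 6.01 to 15.6% in mutant cells. In control glia Col1a1 was at 0.856 times the gauge, while Col9a2 was at 31.0 times, Col18a1 at 29.6 times and Col5a2 at 16.1 times its level. With the gauge's share subtracted, Col9a2 was at 2.34. When called doublets were removed, the gauge stood at 6.02% in control and 4.45% in mutant glia-like cells. Col9a2 was then at 2.36 after subtraction.

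Neural cells held little collagen. In neuron-like cells without doublet-rich clusters the total was 125 and 111 CPM (-0.17, -0.28 to -0.05). Of 4 members with enough UMIs none was higher and 1 was lower, against 1.14% and 0.623% of all genes: Col5a2, at 24.0 and 15.6 (-0.62, -0.91 to -0.34). The others were Col11a1 at 9.91 and 12.5, Col2a1 at 12.2 and 12.0 and Col18a1 at 10.8 and 7.59 (-0.50, -0.93 to -0.08).

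Brain progenitor-like cells had more, and a larger part of it was basement-membrane collagen. Their total was 296 and 305 CPM (0.04, -0.03 to 0.11), of which basement-membrane chains made up 39.4% and 41.1%. Col2a1, also made by early neuroepithelium, was at 64.7 and 77.2 (0.25, 0.11 to 0.40) and Col18a1 at 58.4 and 61.3 (0.07, -0.09 to 0.23). Col4a5 was at 22.4 and 21.3, above its level in mesenchyme, and Col4a1 was at 17.7 and 18.5 (0.06, -0.23 to 0.35). Col1a2 and Col26a1 were at 0.995 and 1.05 times the mesenchyme gauge in control progenitors, and their UMIs there cannot be told from mesenchyme RNA.

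Of 11 members in progenitor-like cells 1 was higher and 1 lower, against 0.98% and 0.432% of all genes. The higher one was the X-linked chain Col4a6, at 4.89 and 8.81 CPM (0.85, 0.35 to 1.37), from 45 and 129 UMIs, and Col4a5 per Col4a6 was 4.58 and 2.42. The lower one was Col5a2, at 29.4 and 19.0 (-0.63, -0.88 to -0.38). Col5a2 was thus lower in neuron-like and progenitor-like cells and had lower values in glia and in mandibular-like and maxillary-like mesenchyme, yet was at 80.4 and 117 (0.54, 0.43 to 0.64) in the Pax7 and Zic1 cluster.

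Collagen was unevenly spread over the neural clusters. The isthmic progenitor-like cluster had Col2a1 at 86.3 and 95.5 CPM, Col5a2 at 45.3 and 32.8, Col18a1 at 44.0 and 43.1, Col4a1 at 31.5 and 31.4 and Col4a2 at 20.7 and 25.5. The roof plate and choroid-like cells of the finer clustering, led by the choroid plexus gene Ttr, had Col18a1 at 188 and 278 (0.57, 0.25 to 0.89) and Col2a1 at 125 and 180.1 (0.53, 0.14 to 0.94), from 44 control and 73 mutant cells. A small cluster led by Corin and Shh held the highest neural Col4a1 level of those with enough UMIs, at 126 and 154.

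Genes that make, cross-link, cleave or bind collagen were read alongside in mesenchyme, where 2.5% of all genes were higher and 0.924% lower. In the modification and folding list, 18 of 19 genes with enough UMIs had ratios above 0 (median 0.23 against 0.02 for all genes), and 2 were higher: P4ha1, a prolyl hydroxylase subunit, at 42.5 and 68.2 CPM (0.68), and Plod1, a lysyl hydroxylase, at 13.6 and 21.4 (0.66). The most abundant were the isomerase Ppib, at 492 and 541, and the collagen chaperone Serpinh1, at 457 and 508. In the processing and cross-linking list (median 0.17) 2 of 10 were higher, the cross-linking oxidase Lox at 6.10 and 10.9 (0.84) and the matrix protein Postn at 13.3 and 21.4, with Fn1 at 129 and 129 and the enhancer of procollagen cleavage Pcolce at 70.9 and 66.9.

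Among 9 breakdown genes (median 0.22) Ctsk, a collagen-degrading protease, was the one higher, at 8.17 and 13.8 CPM (0.75), and the most abundant were Timp2 at 80.5 and 88.8 and Mmp2 at 65.0 and 76.0. Of 6 receptors (median 0.27), the integrin chain Itga1 at 2.23 and 4.82 (1.11) and the collagen-activated kinase Ddr1 at 2.65 and 4.30 (0.70) were higher, while Itgb1 was at 113 and 139 and Ddr2 at 81.5 and 89.4. None of 12 basement-membrane partners (median 0.13) passed the line, with Pxdn at 52.4 and 55.3 and Nid1 at 43.2 and 42.6. Of 7 cartilage and bone genes (median -0.03) 1 was lower: Hapln1, the link protein of cartilage, at 5.98 and 2.90 (-1.04, -1.34 to -0.75), with Sox9 at 158 and 150.2 and Sox5 at 41.5 and 35.5.

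Col22a1, a fibril-associated chain, and Col4a6 reached 100 UMIs over all kept cells but not in mesenchyme. Col22a1 had 152 UMIs in control and 214 in mutant cells, of which 69 and 63 were in mesenchyme, and Col4a6 had 33 and 31 there. The 14 rarest members are given by their UMIs in all kept cells. The most counted of these were Col14a1 (66 in control, 80 in mutant), Col11a2 (75 and 66), Col5a3 (31 and 69) and Col8a1 (24 and 51). Below these were Col20a1 (28 and 42), Col4a4 (25 and 33), Col15a1 (21 and 13), Col6a6 (15 and 20) and Col19a1 (12 and 8). Col28a1 had 11 in each, Col17a1 11 and 7, Col6a5 7 and 11, Col6a4 5 and 3, and Col4a3 1 and 2. At these counts a difference between genotypes was not read.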

How the data were processed

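Per the labels and the study's methods, the authors sorted GFP-positive cells, made 10x Chromium 3′ v3.1 libraries and ran bcl2fastq and Cell Ranger on mm10 (Cell Ranger 6.0.0 per the file headers; Seurat 4.3.0 in the submitters' notes). The deposited values are raw UMI counts per gene and cell, 83542433 in the control and 79206144 in the mutant matrix, from 6148 and 6063 barcodes.

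Cells with 10% or less mitochondrial counts and 200 to 7500 genes were kept. Libraries were integrated and clustered in Seurat 5.3.0 (R 4.3.3) with 2000 variable genes, 30 dimensions and resolution 0.05 for classes, and with 20 dimensions and resolutions 0.2 and 0.4 within mesenchyme and neural cells. The collagen chains and the listed partner genes were left out of the clustering genes. Clusters were named from marker lists by a rule of 3 or more markers, each found in 5% or more of the cells, and this rule was settled after the clusters were seen. Scrublet in scanpy 1.11.5 called 1.65% and 3.06% of cells doublets, which were kept except where stated. Neuron-like and progenitor-like values leave out doublet-rich clusters, as do the marker sums and the Tfap2a and Tfap2b values of mesenchyme. The 5 haemoglobin-rich control barcodes were filtered out only in a check of the mesenchyme and glia values.

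Counts were summed per class and library, divided by the class total and multiplied by 1000000 to give CPM (Python 3.11.15, numpy 2.4.6, scipy 1.17.1, pandas 2.3.3). Levels have exact Poisson intervals, ratios exact conditional binomial intervals and shares of cells Clopper-Pearson intervals, all at 95% and for counting error only. With 1 library per genotype no test was run. The script for ratios was tested on simulated data. TMM factors came from edgeR 4.0.16. Gene positions are from GENCODE M21 and promoters from RefSeq, both on GRCm38. Genes with enough UMIs were named by rule: all members with 100 UMIs in mesenchyme, and of each partner list the 2 highest and all past 1.5-fold. In the other classes and the 4 main mesenchyme clusters they were the highest 5 and all past 1.5-fold. For the finer and the neural clusters only part of these members are named. The members and lists were chosen with earlier results of these data known.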

Additional observations from a re-analysis of the deposited data

Results flagged for a closer look

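Within the mesenchyme, 7 members had intervals on opposite sides of 0 in pairs of regions, all with 1 library per genotype. Between the Pax7 and Zic1 cluster and the mandibular-like cluster, the log2 ratio of mutant to control was 0.94 and -0.71 for Col9a1, 1.23 and -0.79 for Col9a2, 0.80 and -0.48 for Col11a1, 0.54 and -0.43 for Col5a2 and 0.22 and -0.52 for Col27a1. Between the Pax7 and Zic1 cluster and the maxillary-like cluster it was -0.36 and 0.67 for Col25a1. Col13a1 was at 0.42 in the Pax7 and Zic1 cluster and -0.34 in the maxillary-like cluster, where the upper bound lay at 0.00. The difference between regions was not tested for any of these.

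Between classes of cells, Col5a2 was at 0.11 in mesenchyme and -0.63 in brain progenitor-like cells, both without doublet-rich clusters. Col18a1 was at 0.72 in glia-like and -0.50 in neuron-like cells. These differences were not tested either. In the glia-like cells with few neuron-marker UMIs, Col18a1 was at 0.37.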

How the results depend on the processing

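In mesenchyme the ratio of the collagen total, 0.20 on the log2 scale, was 0.17 with TMM scaling, 0.25 with equal weight per cell, 0.26 with cells thinned to 5000 UMIs, 0.22 with called doublets removed and 0.21 without doublet-rich or shallow clusters and haemoglobin-rich barcodes. Fibrillar chains were at 0.16, 0.25, 0.26 and 0.21 under the first 4 of these, and other chains at 0.15, 0.23 and 0.25 under the first 3. The count of members higher in the mutant, 2, was 4 with thinned cells and 6 with no minimum of UMIs, where 11.2% of all genes were called higher. Leaving out integration or raising the resolution for classes moved none of these by more than counting error. In mesenchyme 26 or 27 of 27 members kept their sign under each planned setting, the exceptions being Col25a1 with TMM scaling and Col9a2 with equal weight or thinning.

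In glia the ratio of the total, 0.66, was 0.60 with TMM scaling and 0.78 with thinning, and 8 of 14 members stayed higher under every planned setting. Among glia-like cells with under 1000 and under 500 CPM of neuron markers, limits chosen after seeing the data, it was 0.34 and 0.27. The cause was not tested. No paired analysis was possible because each genotype has 1 library. Counting intervals do not cover differences between embryos, and depth limits the members under 100 UMIs.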
